A study of Mus musculus with 2 samples.

Results

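The early-anagen library of sorted melanocyte stem cells (McSCs) held a minority of cells without Mki67 or Top2a UMIs in which Rnase1, Ypel3, Mylk, Mxd4, Zbtb20 and Tcp11l2 took up an unusually large part of the RNA. These cells were chosen by the share of their unique molecular identifiers (UMIs, 1 count for each captured RNA molecule) that fell in those 6 genes. The cells ranked had more than 10000 UMIs, less than 5% of them mitochondrial, at least 1 Dct UMI, fewer than 3 UMIs of Krt10 plus Krt14 and 0 UMIs of Mki67 plus Top2a. The top 20% by the share were 305 of 1523 ranked cells, out of 11010 cell barcodes in the library and 15337 in the series. They are called Rnase1-high cells here, and they were set beside the bottom 50%, 762 cells, with the 456 cells between them left aside.

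The study asked how McSCs move between a stem cell state and a pigment-producing state while the hair follicle regrows. Dorsal skin was taken from mice of the genotype Dct-rtTA; tetO-H2B-GFP, in which the Dct promoter drives the reverse tetracycline activator and doxycycline food, given for 4 days, turns on a green nuclear histone in cells of the melanocyte lineage. For the early-anagen library (Activated McSC), mice were depilated at 8 weeks of age and cells were taken 4 days after depilation, in anagen II. For the second library (Differentiated Mc), bulb melanocytes were taken from mice at 5 weeks of age, in anagen VI. GFP+ cells that excluded DAPI were sorted, the cells of 4 mice were combined for each library, and each condition has 1 library, so that no difference between cells or between libraries has a replicate check. The reporter marks any cell with an active Dct promoter and does not separate bulge from hair germ McSCs. The libraries also differ in reagent chemistry (v3 for early anagen, v2 for the bulb), age and dissection, which cannot be told apart from the cell state. The early-anagen library held 116800173 UMIs with a median of 3880 per barcode, and the bulb library 58161397 UMIs with a median of 13565.

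Quiescent stem cells keep a low rate of RNA and ribosome production and hold the cell cycle inhibitors that keep them out of division. Members of the MXD family pair with MAX on E-box DNA and repress genes that MYC activates, among them genes for ribosome assembly and nucleotide synthesis. YPEL3 is a small zinc-binding protein known for slowing proliferation, and ribonuclease 1 is a secreted enzyme that degrades extracellular RNA. In the hair follicle, McSCs rest through telogen and enter the cell cycle at the onset of anagen.

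E-box letters are shown for the Mxd4 promoter because MXD4, MAX and MYC bind this element. The RefSeq windows of 250 bases before the start of each of the 6 genes were searched on both strands. The stretch printed lies at chr5:34187897-34187956 on the minus strand of GRCm38.p6, the E-box 219 bases before the Mxd4 start, and capitals mark the E-box.

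Mxd4 promoter: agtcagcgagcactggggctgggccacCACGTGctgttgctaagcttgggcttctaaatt

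CACGTG was present in 1 of the 6 promoters and in 6.02% of 32851 promoters of the same length. The M-box TCATGTG, the FOXO element GTAAACA and the cell cycle element TTTGAA were in 0 of the 6 promoters, against 3.25%, 3.17% and 16% of all promoters. These are matches of letters, not sites of binding.

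The 6 genes held between 983 and 3041 CPM (UMIs of a gene per 1000000 UMIs) in Rnase1-high cells, with a median of 1265, which was 10 to 72 UMIs per cell. In comparison cells they held 0 to 583 CPM, with a median of 357. There was no gap at the limit, since the 10 cells just inside it had 983 to 990 CPM and the 10 just outside had 971 to 983. The cells are thus the upper end of a continuous range of this share, and no clustering was run.

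**Figure D1:**
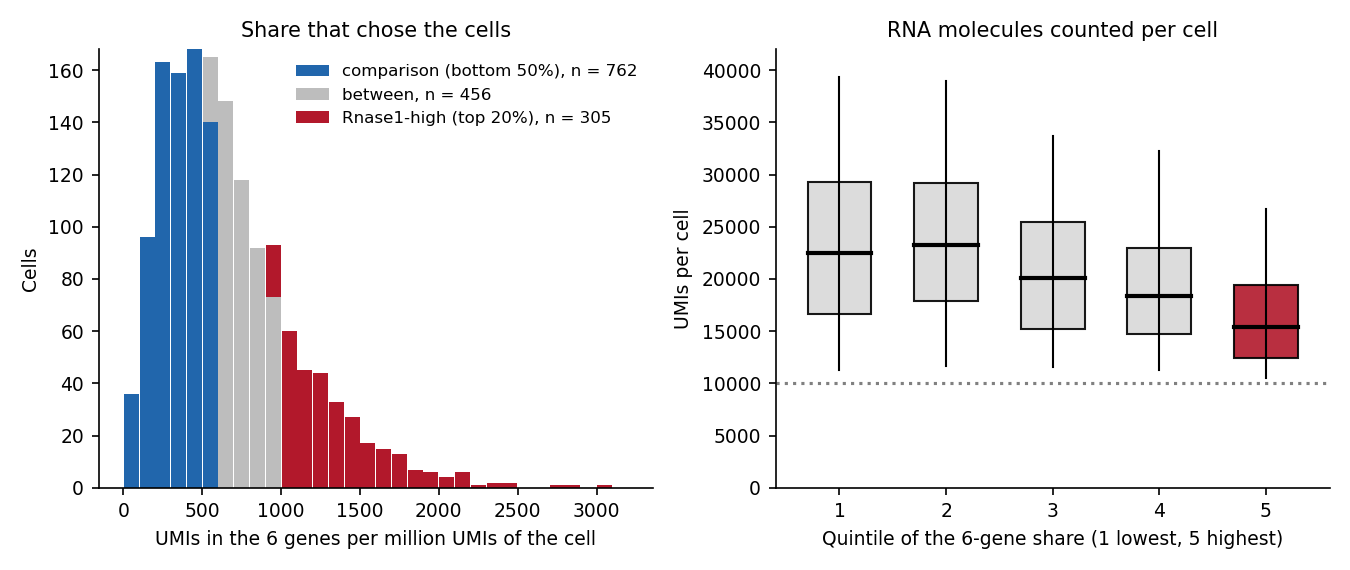
Left, the number of cells (y axis) in steps of 100 CPM held by the 6 genes (x axis), coloured by group. Right, UMIs per cell in each quintile of the ranked cells, as the median (line), the middle 50% (box) and the 5th to 95th percentile (whisker), with the 10000 UMI minimum dotted. The share has 1 continuous peak with a long right side, and the median UMI count is 22446 in the lowest quintile and 15354 in the highest.

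All levels below are CPM of the summed UMIs of a group after 10000 UMIs had been drawn at random from each cell. Brackets give exact 95% Poisson intervals, or exact Clopper-Pearson intervals for shares of cells. They cover counting error only and not the spread between mice, and no p-value can be given. The levels of the 6 genes describe the choice of the cells. Rnase1 was at 129.5 CPM in Rnase1-high cells and 13.6 CPM in comparison cells, a 9.49-fold ratio (log2 3.25 [2.93, 3.57]). Zbtb20, a zinc-finger repressor, was at 348 and 83.7 CPM (log2 2.06). Mylk, the myosin light chain kinase, was at 124 and 27.7 CPM (log2 2.17), and Ypel3 at 194 and 45.0 CPM (log2 2.11). Tcp11l2 was at 255 and 80.1 CPM (log2 1.67) and Mxd4 at 305 and 103 CPM (log2 1.56).

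The gene that gives the cells their name was seen in only part of them. At 10000 UMIs per cell, 49.8% [44.1, 55.6] of Rnase1-high cells had a Rnase1 UMI, against 11.7% [9.49, 14.2] of comparison cells. Keratinocyte-like cells of the same library, which should lack melanocyte genes, had one in 12% of 75 cells (median of 34423 UMIs before thinning, against 15360.0 and 22270.0 in the other groups). The ranking used Rnase1 and so set its share in comparison cells, which is not read here as expression. Mxd4 and Zbtb20 were each seen in 93.1% of Rnase1-high cells, and in 61.7% and 52.0% of comparison cells. Rnase1 supplied 9.55% of the UMIs that set the share in Rnase1-high cells, while Zbtb20 supplied 25.7% and Mxd4 22.5%. All 6 genes were seen together in 16.1% of Rnase1-high cells and in 0 of the 762 comparison cells.

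These genes lie on different chromosomes except where stated, at GRCm38 positions of the GENCODE annotation. Rnase1 is at chr14:51144998-51146785, Ypel3 at chr7:126776955-126780514, and S100b and Tcp11l2 are both on chromosome 10. Mylk and Zbtb20 are both on chromosome 16. UMIs are assigned to whole genes and carry no position within them.

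S100b, a calcium-binding protein of neural crest derivatives that the share did not use, was at 40.7 CPM in Rnase1-high and 12.5 CPM in comparison cells (log2 1.71 [1.31, 2.11]). It had a UMI in 23.3% and 9.45% of the cells and in 0 of 75 keratinocyte-like cells. Every gene comes from the same cells that were ranked, so these ratios are descriptions of the cells and not independent evidence about them. When each cell's UMIs were split at random into 2 parts, with one part used for the ranking and the other for the measurement, the ratio of Rnase1 was 2.57 on the log2 scale, that of S100b 1.56 and that of Rnase4 2.30. The other ranking genes lay between 1.07 (Tcp11l2) and 1.90 (Mylk), with Mxd4 at 1.22.

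The Rnase1-high cells had fewer captured UMIs, a count that is also the denominator of the share that chose them and that the rule limits from below, so the difference is partly fixed by the choice. Their median was 15360.0 UMIs (middle 50% 12487 to 19512) against 22270.0 (16604 to 28692) in comparison cells, a log2 ratio of -0.54, and 14.1% of them exceeded the comparison median. Within cells of 10000 to 20000 UMIs the ratio was -0.12. A share is noisier in a cell with few UMIs, and the 10000 UMI minimum removed still smaller cells. With the ranking done on cells thinned to 10000 UMIs, 247 of the 305 cells (81.0%) stayed in the top 20% and the medians were 16153 and 21910.0. At equal depth the Rnase1-high cells showed slightly more genes per cell, 2988 against 2895.

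Mitochondrial UMIs made up a median of 3.55% of Rnase1-high and 3.03% of comparison cells. The nuclear RNA Malat1 was at 21601 and 13299 CPM (log2 0.70) and Neat1 at 248 and 106 CPM (log2 1.23). Both are retained in the nucleus. The part of mitochondrial and nuclear RNA in the results below was not tested.

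Of 5893 genes with at least 20 CPM in either group, 1026 (17.4%) were at least 1.5-fold higher in Rnase1-high cells and 738 (12.5%) at least 1.5-fold lower. The median gene had a log2 ratio of 0.07. Scaling by edgeR TMM factors in place of the plain total gave a median of -0.09 and turned this balance around, to 594 higher and 1169 lower, so the direction of genes with small ratios depends on the scaling. At least 2-fold ratios were found for 210 genes higher and 196 lower.

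**Figure D2:**
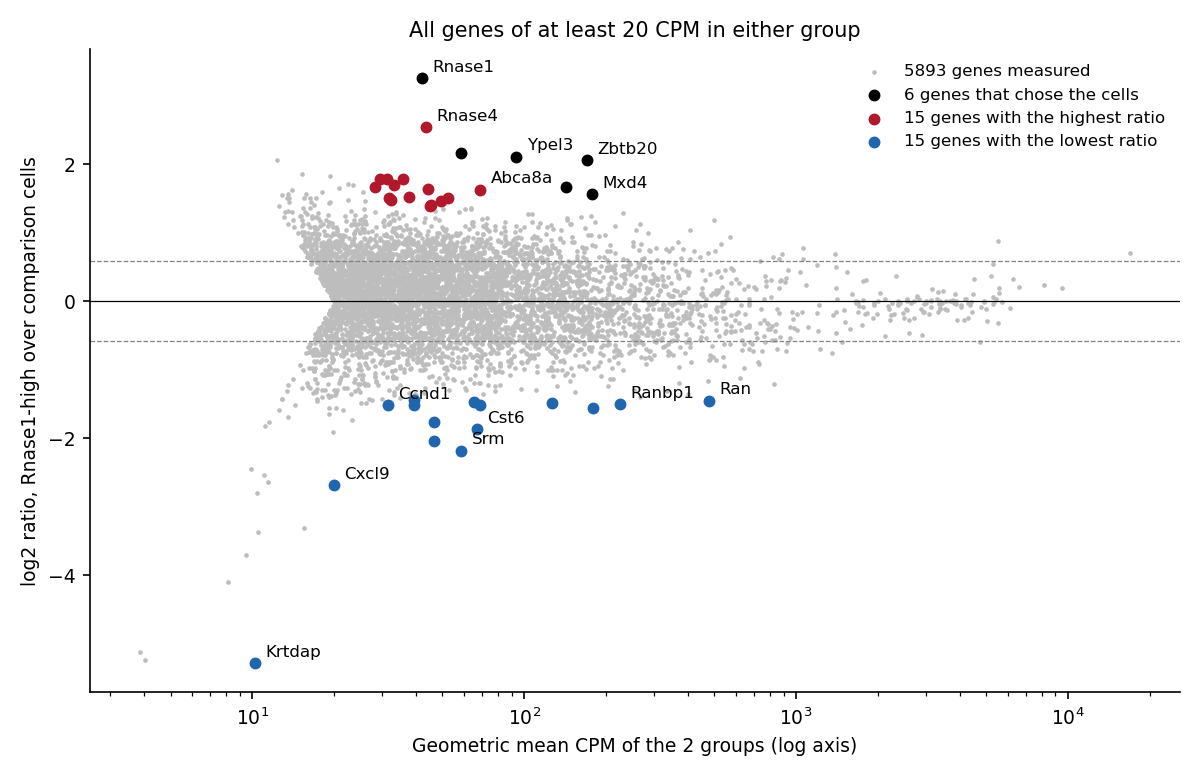
Each point is 1 of the 5893 genes, with the geometric mean CPM of the 2 groups on a log x axis and the log2 ratio of Rnase1-high over comparison cells on the y axis. Dashed lines mark 1.5-fold. Rnase4 is the highest gene that did not choose the cells, and Ran and Ranbp1 are low at high abundance, while Krtdap and Cxcl9 at the bottom rest on few cells.

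Of 8 genes on a list of secreted ribonucleases and their inhibitor, 4 had 20 CPM or more, and besides Rnase1 they were Rnase4, Ang and the inhibitor gene Rnh1, while Ang2 and Rnase2a were at 0 UMIs in Rnase1-high cells. Rnase4 was at 105 CPM in Rnase1-high cells and 18.0 CPM in comparison cells, a 5.84-fold ratio (log2 2.54 [2.25, 2.84]), the largest of any gene of at least 50 CPM outside the 6. Ang, which encodes angiogenin, was at 36.4 and 10.2 CPM (log2 1.83 [1.4, 2.27]). Rnase4 and Ang overlap on the same strand of chromosome 14 and share their first exons, so that their UMIs may be divided between them uncertainly. Rnh1, the cytoplasmic inhibitor of these enzymes, was at 311 and 354 CPM (log2 -0.19). Rnase4 was not limited to cells with Rnase1, as it had a UMI in 47.4% [39.2, 55.6] of Rnase1-high cells with a Rnase1 UMI and in 40.5% [32.7, 48.7] of those without. Over all ranked cells, which were not chosen on Rnase1, these shares were 33.1% [28.3, 38.1] and 19.4% [17.1, 21.8]. Rnase4 was also seen in 54.7% of keratinocyte-like cells, more often than in either group, and a part of free RNA in its counts was not tested.

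The other genes with the highest ratios had varied roles. Cdh19, a cadherin of Schwann cell precursors, was at 72.8 and 27.7 CPM (log2 1.39), and Gjc3, a connexin of glia, at 50.5 and 15.9 CPM (log2 1.67). Postn, the matrix protein periostin, was at 66.2 and 19.3 CPM (log2 1.78), and at 192 CPM in keratinocyte-like cells, whose part in its counts was not tested. The lipid transporters Abca1 and Abca8a were at 78.4 and 25.2 CPM (log2 1.64) and at 121 and 39.1 CPM (log2 1.63). Pik3ip1, an inhibitor of PI3 kinase, was at 63.6 and 22.2 CPM (log2 1.52). Mtss2, Tmem140, Ctsf, Cnrip1, Ablim1, Gprc5b, Sema5a and Zfp608 completed the 15 genes that the rule named, with log2 ratios between 1.4 and 1.79.

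Of 32 genes on a list of growth arrest and quiescence genes, 27 had 20 CPM or more, 15 were at least 1.5-fold higher in Rnase1-high cells (against 17.4% of all genes) and 0 at least 1.5-fold lower (against 12.5% of all genes), with a median log2 ratio of 0.62 against 0.07 for all genes. Bcl6, a transcriptional repressor, was at 31.1 and 10.4 CPM (log2 1.59), and Rbl2, the pocket protein p130 that represses E2F targets in resting cells, at 94.8 and 44.1 CPM (log2 1.10). At their lowest over the alternatives these log2 ratios were 0.05 and 0.26. Cdkn1b, which encodes the inhibitor p27, was at 144 and 81.0 CPM (log2 0.83), and Cdkn1a, which encodes p21, at 66.2 and 40.6 CPM (log2 0.71). Klf9, a Krüppel-like repressor, was at 338 and 186 CPM, and Trp53inp1, a target of p53, at 35.7 and 15.7 CPM. Bcl6 and Trp53inp1 reached the 20 CPM minimum only in Rnase1-high cells, which helps decide that they count as higher. Ccng1 was the member on the other side of 0, at 18.7 and 22.6 CPM.

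Relatives of Ypel3 and Mxd4 were measured beside them. In the YPEL family, both relatives with enough UMIs were at least 1.5-fold higher. Ypel2 was at 72.8 and 34.9 CPM (log2 1.06) and Ypel5 at 52.5 and 33.5 CPM (log2 0.65). In the MYC, MAX and MXD network without Mxd4, 2 of 7 genes were at least 1.5-fold higher, against 17.4% of all genes, and 5 were within 1.5-fold. Mxi1, a MAX partner that opposes MYC, was at 104 and 49.2 CPM (log2 1.08 [0.86, 1.30]) and Mga at 45.9 and 27.8 CPM (log2 0.72). At their lowest over the alternatives these log2 ratios were 0.06 and 0.27. Myc itself was at 27.2 and 21.4 CPM (log2 0.35) and Max at 62.3 and 55.1 CPM (log2 0.18), both within 1.5-fold. Of the 15 circadian output genes listed, 7 had enough UMIs and 4 were at least 1.5-fold higher, namely Dbp, Tef, Nr1d1 and Nr1d2, where 17.4% of all genes were. Their median of 0.84 was 0.29 in cells low in S and G2/M genes and 0.41 above 15000 UMIs.

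Factors that build ribosomes were lower. Of 30 ribosome biogenesis factors, 27 had 20 CPM or more and 21 of them were at least 1.5-fold lower in Rnase1-high cells (against 12.5% of all genes), with 0 higher and a median log2 ratio of -0.90. All 27 ratios were below 0. Nhp2, a protein of the H/ACA particles that modify ribosomal RNA, was at 75.4 and 211 CPM (log2 -1.49 [-1.69, -1.29]). Nolc1 was at 44.3 and 113 CPM (log2 -1.35), and Fbl, the methyltransferase fibrillarin, at 100 and 205 CPM (log2 -1.04). Npm1, which encodes the most abundant nucleolar protein of the list, differed less, at 1549.5 and 1981 CPM (log2 -0.35).

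In single cells the sum of the 30 genes had a median of 31 UMIs (middle 50% 26 to 38) in Rnase1-high cells and 47 (37 to 61) in comparison cells. The groups overlapped, with a range of 12 to 65 in the former and 5 to 128 in the latter. The median of 82 genes on a list of cytosolic ribosomal proteins was -0.04. Of these, 3 were at least 1.5-fold lower (against 12.5% of all genes) and 0 higher (against 17.4%). The 3 were Rps19bp1, Rps27l and Rpl7l1, of which Rps19bp1 encodes a binding protein of RPS19 and not a ribosomal protein.

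**Figure D3:**
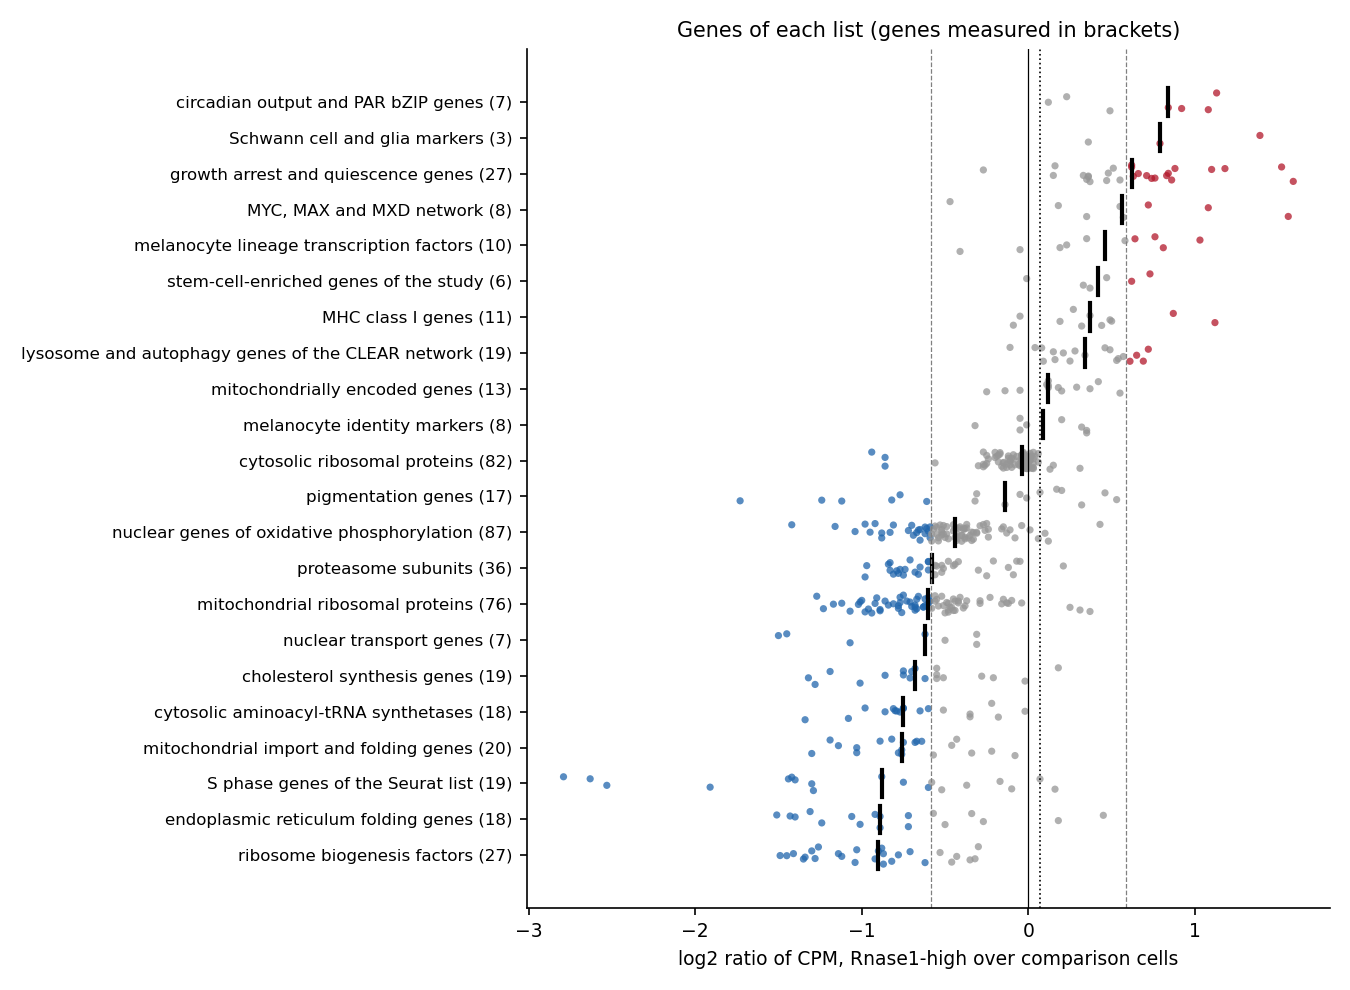
Each point is a gene of the list named at the left (genes of at least 20 CPM in brackets), placed by its log2 ratio of CPM in Rnase1-high over comparison cells; red and blue are at least 1.5-fold higher and lower, black bars are list medians and the dotted line is the median of all genes. Ribosome biogenesis factors have the lowest median (-0.90) and circadian output genes the highest (0.84) of the lists drawn.

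The genes with the lowest ratios, chosen for that, had varied roles. Srm, spermidine synthase, a classic MYC target, was at 27.5 CPM in Rnase1-high and 125 CPM in comparison cells, a 4.55-fold ratio (log2 -2.18 [-2.52, -1.86]). It had a UMI in 21.6% and 64.0% of the cells. Ran, the GTPase that drives nuclear transport, was at 289 and 789.5 CPM (log2 -1.45 [-1.56, -1.35]) and its partner Ranbp1 at 134 and 379.8 CPM (log2 -1.50). Cycs, cytochrome c, was at 104 and 306 CPM (log2 -1.55), and the helicase Ddx39 at 25.2 and 85.7 CPM (log2 -1.76). Dut, Ppa1, Fkbp11 and Tmem97 had log2 ratios between -1.44 and -1.52.

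Genes of protein folding, tRNA charging, the proteasome, sterol synthesis, nuclear transport and mitochondria were counted on 7 lists that were added after the values had been seen. Of 18 folding genes of the endoplasmic reticulum, 12 were at least 1.5-fold lower and 0 higher (median -0.89), where 12.5% of all genes were lower, with Hspa5 at 529 and 1001 CPM and Manf at 164 and 433 CPM. Of 18 aminoacyl-tRNA synthetases, 12 were lower (median -0.75), and of 20 mitochondrial import genes 14 (median -0.76). Of 76 mitochondrial ribosomal proteins 40 were lower (median -0.60), of 36 proteasome subunits 18 (median -0.58), of 19 cholesterol synthesis genes 11 (median -0.68) and of 7 nuclear transport genes 4 (median -0.62). The cholesterol median was -0.29 when cells were ranked and measured on separate parts of their UMIs and -0.30 under 3% mitochondrial UMIs, and the nuclear transport median -0.25 in cells low in S and G2/M genes. None of the genes on these lists was at least 1.5-fold higher. Of 87 nuclear genes of oxidative phosphorylation, on a list drawn up earlier, 23 were lower and 0 higher (median -0.44). The 13 mitochondrially encoded genes did not share this, with a median of 0.12 and 0 genes past 1.5-fold in either direction.

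The cells had 0 Mki67 and Top2a UMIs by the rule, as had the comparison cells, and differed in other cycle genes. Of 19 S phase genes with enough UMIs, 12 were at least 1.5-fold lower in Rnase1-high cells (against 12.5% of all genes) and 0 higher (median -0.88). Mcm5 and Mcm2, subunits of the replicative helicase, were at 4.59 and 28.3 CPM and at 4.59 and 26.5 CPM. Like Hells, Gins2 and Fen1, they reached the 20 CPM minimum only in the comparison group. For such genes the minimum itself helps decide that they count as lower. Pcna, the sliding clamp, was at 71.5 and 132 CPM (log2 -0.88). Ccnd1, which encodes cyclin D1, was at 18.7 and 53.3 CPM (log2 -1.51 [-1.94, -1.11]). G2/M genes differed less, with 3 of 13 lower and a median of -0.19. The comparison group thus held cells with replication genes that the rule did not remove. With both groups drawn only from cells at or under the median share of S and G2/M genes, the S phase median was -0.27, that of the ribosome biogenesis factors -0.68 and that of the growth arrest genes 0.45.

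The cells expressed the genes of the melanocyte lineage. The melanocyte markers Dct, Tyrp1, Pmel, Mlana, Mitf, Sox10, Kit and Tyr had a median log2 ratio of 0.09, and 0 of the 8 passed 1.5-fold. Dct was at 10134 and 8849 CPM, Tyrp1 at 7023 and 5627 CPM and Mitf at 454 and 471 CPM. Among 14 lineage transcription factors, 10 had enough UMIs and 4 were at least 1.5-fold higher (against 17.4% of all genes). These were Sox5 (46.6 and 22.8 CPM), Zeb2 (332 and 189.5 CPM), Snai2 (21.3 and 12.6 CPM) and Pax3 (554 and 355 CPM), each known from the neural crest and early melanocyte lineage. Snai2 reached the 20 CPM minimum only in Rnase1-high cells, which helps decide that it counts as higher. At their lowest over the alternatives the log2 ratios were 0.19 for Sox5, 0.27 for Zeb2, 0.06 for Snai2 and 0.28 for Pax3, all within 1.5-fold.

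Pigmentation genes divided. Of 17 with enough UMIs, 0 were at least 1.5-fold higher, against 17.4% of all genes, and 6 lower, against 12.5%, with a median of -0.14 and a nearly equal sum of 31210.5 and 30349.7 CPM. The median turned to 0.14 within cells of 10000 to 20000 UMIs and was -0.56 in cells low in S and G2/M genes. Oca2, the melanosomal transporter whose activity the study used to mark differentiating cells, was at 12.8 and 42.5 CPM (log2 -1.73 [-2.25, -1.25]). It reached the 20 CPM minimum only in comparison cells, which helps decide that it counts as lower. Its ratio had the widest range of the 6 over the alternatives, from -4.00 within cells low in S and G2/M genes to -0.65 within cells of 10000 to 20000 UMIs. It was also the only ratio of the 6 to stay past 1.5-fold under each alternative run for it. At 10000 UMIs per cell, 6.23% [3.79, 9.56] of Rnase1-high cells and 17.3% [14.7, 20.2] of comparison cells had an Oca2 UMI, against 1.33% of keratinocyte-like cells. Before thinning the first 2 shares were 8.52% [5.64, 12.2] and 21.9% [19.0, 25], at unequal medians of 15360.0 and 22270.0 UMIs. Mc1r, the melanocortin receptor, was at 50.8 and 119.9 CPM (log2 -1.24 [-1.49, -0.99]) and the channel gene Trpm1 at 422 and 914 CPM (log2 -1.12). Slc24a4, Rab32 and Slc24a5 were the other 3. At their weakest over the alternatives, Mc1r was at -0.23 and Trpm1 at -0.35. Slc24a4 reached -0.52, Rab32 -0.38 and Slc24a5 -0.14, and all of these were within 1.5-fold. Gpnmb had the highest ratio of the list, at 1437 and 992 CPM (log2 0.53).

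The study named Col12a1, Cdh1 and Txnip as examples of genes enriched in stem cells, and the list used here also holds Hspa1a, Cd9 and Sept4. Since the study chose its genes on these libraries, the list is not independent of them. Of 6 genes, 2 were at least 1.5-fold higher, Col12a1 at 373 and 225 CPM and Sept4 at 150.5 and 97.6 CPM, where 17.4% of all genes were, and the median was 0.42, or 0.17 within cells of 10000 to 20000 UMIs. Of 16 genes of the TGF-beta and BMP response, 9 had enough UMIs, 1 was at least 1.5-fold higher (Bmpr1a, a BMP receptor, at 59.0 and 32.5 CPM) and 3 lower (against 12.5% of all genes), with a median of 0.02. The 3 were Id1, Id2 and Id3, direct BMP targets, while Id4, under 20 CPM, was at 17.0 and 18.9 CPM (log2 -0.15). Id1 was at 2.62 and 34.0 CPM (log2 -3.70 [-4.92, -2.70]), Id3 at 162 and 397 CPM (log2 -1.30) and Id2 at 146 and 246 CPM (log2 -0.75). Id1 reached the 20 CPM minimum only in the comparison group, which helps decide that it counts as lower. At their weakest over the alternatives the log2 ratios were -0.80 for Id1, -0.18 for Id3, -0.09 for Id2 and 0.36 for Bmpr1a. All of these but that of Id1 were within 1.5-fold.

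Markers of other cell types were looked at because some of the high genes are also known from glia and smooth muscle. Of 8 Schwann cell and glia markers, 3 had 20 CPM or more and 2 of them were at least 1.5-fold higher (against 17.4% of all genes), Foxd3 at 167 and 96.3 CPM (log2 0.79) and Cdh19, while Fabp7 was at 126 and 97.8 CPM (log2 0.36). At their lowest over the alternatives the log2 ratios were 0.27 for Foxd3 and 0.41 for Cdh19, both within 1.5-fold. The summed level of the 8 was 376 and 228 CPM, with Foxd3 the most abundant, while Mbp, Sox2, Ngfr and Gfra3 were at 0 UMIs in Rnase1-high cells. The smooth muscle markers summed to 1.31 CPM, with Myh11, Cnn1, Des, Myl9 and Rgs5 at 0, although Mylk is a gene of that tissue. Endothelial, fibroblast and immune markers summed to 7.87, 1.97 and 17.4 CPM. Keratinocyte markers summed to 34.4 CPM in Rnase1-high and 29.9 CPM in comparison cells, with Krt10 the most abundant at 17.0 CPM, which the rule limited.

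Of the 15 genes with the lowest ratios, 4 rested on few cells. A single comparison cell held 460 of the 485 Krtdap UMIs of its group, and a single comparison cell 688 of the 974 Cst6 UMIs, both genes of keratinocyte differentiation. Whether these were the same cell was not examined. For the chemokines Cxcl9 and Cxcl10, a single cell held 244 of 383 and 170 of 717 UMIs. With the 14 cells that held more than 20 UMIs of Krtdap, Cxcl9 and Cxcl10 left out of the ranking, Cst6 had a log2 ratio of -0.10, Cxcl10 0.22 and Cxcl9 0.78, and Krtdap -1.0, while Srm stayed at -2.17.

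Levels changed gradually over the whole ranking. From the lowest to the highest quintile (5 equal groups) by the share, Srm was at 160.3, 107, 87.5, 52.0 and 27.6 CPM and Ran at 966, 717, 577, 454 and 289 CPM. The sum of the ribosome biogenesis factors was 5588 CPM in the lowest quintile and 3202 CPM in the highest, and that of the growth arrest genes 2037 and 3617 CPM. At each step the ribosome biogenesis sum fell and the growth arrest sum rose. Rnase4 was at 14.1, 15.4, 30.5, 44.7 and 105 CPM, with its largest step at the top. Oca2 was highest in the second quintile, at 53.4 CPM, and lowest in the top quintile, at 12.8 CPM. The pigmentation sum was 28211 CPM in the lowest quintile and between 31247 and 31804 CPM in the others.

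**Figure D4:**
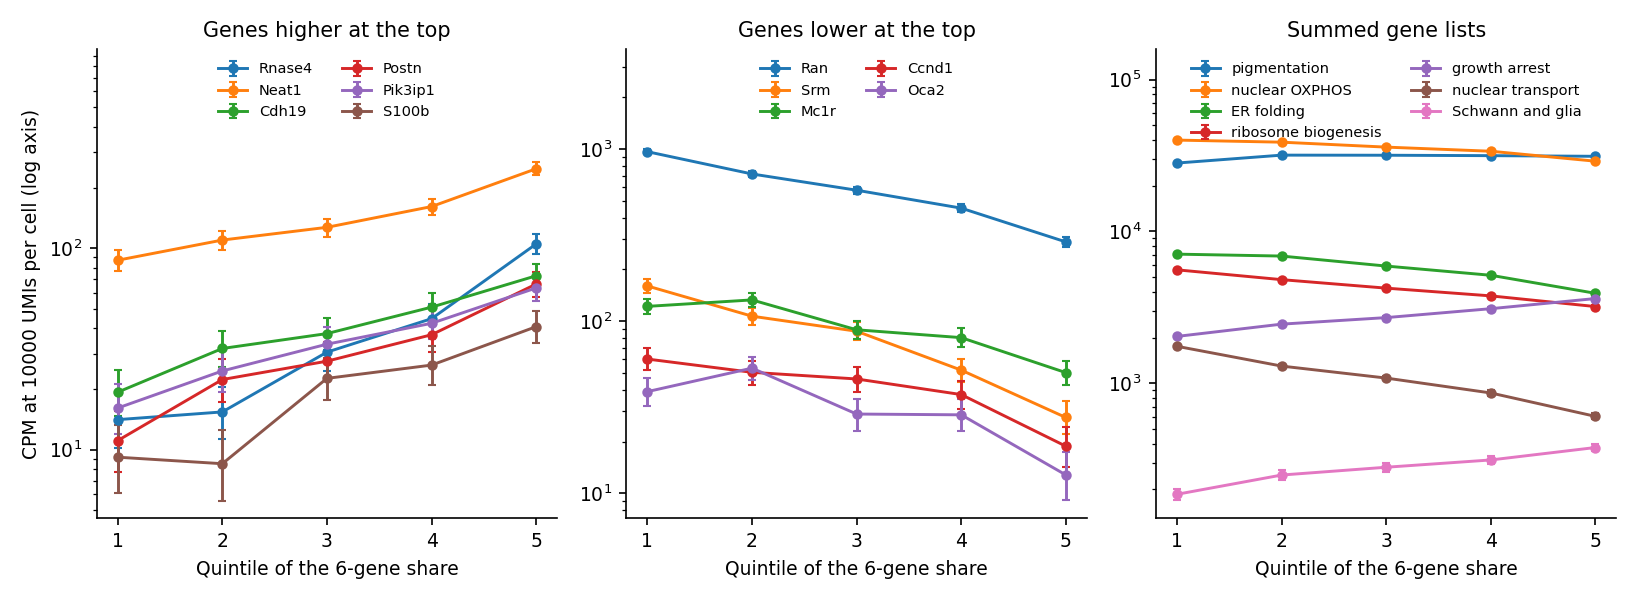
CPM on a log axis in each quintile of the 1523 ranked cells, from the lowest (1) to the highest (5) 6-gene share, with exact 95% Poisson intervals. Srm is at 160.3 CPM in the lowest group and 27.6 CPM in the highest and Rnase4 is at 105 CPM in the highest, while the pigmentation sum lies between 28211 and 31804 CPM.

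Among the 305 cells, those with a Rnase1 UMI were set beside those without for 17 genes and 4 list sums, of which 5 genes and 1 sum had an interval that left out 0. The 152 cells with a UMI and the 153 without had 3221 and 3183 CPM of ribosome biogenesis factors (log2 0.02 [-0.04, 0.07]) and 3685 and 3566 CPM of growth arrest genes. S100b was at 50.7 and 30.7 CPM (log2 0.72 [0.18, 1.28]) and Oca2 at 4.61 and 20.9 CPM (log2 -2.18 [-3.61, -0.98]), the latter from 7 and 32 UMIs. Tyrp1 was at 6913 and 7131 CPM (log2 -0.04 [-0.08, -0.01]) and the pigmentation sum at 30363 and 32052 CPM (log2 -0.08 [-0.10, -0.06]). Tcp11l2 and Abca1 were lower in cells with Rnase1, at 226 and 284 CPM and at 67.1 and 89.5 CPM. Some of this follows from the choice, since a cell without Rnase1 needs more UMIs of the other 5 genes to enter the top 20%. With Rnase1 left out of the share, 1010 genes were at least 1.5-fold higher and 713 lower, and Rnase1 itself had a log2 ratio of 2.18. With the ranking by Rnase1 alone, 99 genes were higher and 71 lower, the ribosome biogenesis median was -0.37, the growth arrest median 0.29 and the S phase median -0.16.

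The depth difference was made smaller by ranking only the cells of 10000 to 20000 UMIs, where 156 cells were set beside 389. Their medians were 13890.0 and 15105 UMIs, a log2 ratio of -0.12. There 993 genes were at least 1.5-fold higher and 601 lower, the ribosome biogenesis median was -0.94 and the growth arrest median 0.56. The S phase median was -0.35 there, closer to 0 than in all ranked cells.

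The bulb melanocytes showed the 6 genes at other levels. At 10000 UMIs per cell, 3287 bulb melanocytes had 94.7 CPM of Rnase1, 122 CPM of Ypel3, 141 CPM of Mxd4 and 93.5 CPM of Tcp11l2, all between the levels of the early-anagen groups. Mylk, at 1.43 CPM, and Zbtb20, at 24.9 CPM, were below both groups. Rnase4 was at 0.183 CPM in the bulb, and Oca2 at 550.5 CPM. Library chemistry and cell state cannot be told apart in these values.

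Few genes differed when bulb cells were ranked by the same 6-gene share. Of 3200 bulb cells that passed every filter, the top 640 and the bottom 1600 differed by at least 1.5-fold in 13 of 4914 genes higher (0.265%) and 18 lower (0.366%), where the early-anagen shares were 17.4% and 12.5%. The 13 included 5 of the 6 ranking genes and Btg2, Bcl2l11 and Gprc5b. The 18 included the keratinocyte marker Krt17, and Sfn, Tchh, Gjb2, S100a6 and Fkbp11. The summed keratinocyte markers had a log2 ratio of -1.86 in the bulb ranking, and their part in it was not tested. The ribosome biogenesis median was -0.17, with 0 of 22 factors past 1.5-fold, and Srm had a log2 ratio of -0.44. The growth arrest median was 0.14. Whether the rankings differ beyond the spread between mice could not be tested with 1 library each.

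**Figure D5:**
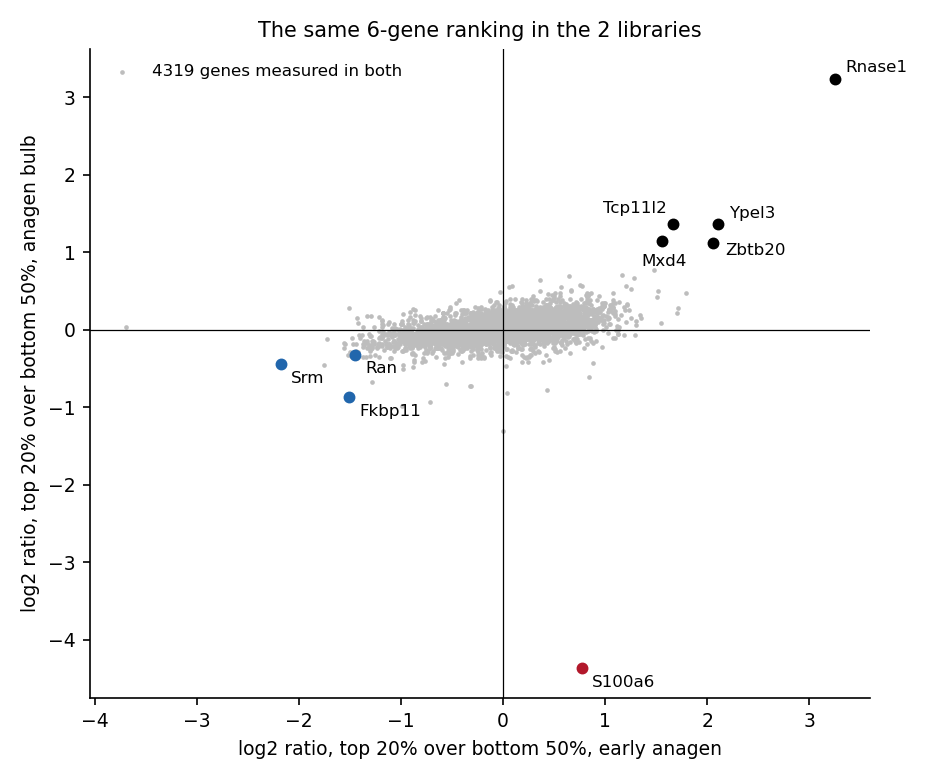
Each point is 1 of 4319 genes with at least 20 CPM in both libraries, with the log2 ratio of the top 20% over the bottom 50% of cells in early anagen on the x axis and in the bulb on the y axis. The points spread more along the x axis than the y axis, where the ranking genes (black) and S100a6 (-4.37) stand apart and a few others, among them Gprc5b (0.77) and Fkbp11 (-0.87), also pass 1.5-fold.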

How the data were processed

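The authors aligned the reads to mm10 and made the UMI matrices with Cell Ranger 6.0.1, per the labels; the deposited values are raw counts of UMIs per gene and barcode, not normalized, in 1 matrix per library. Cells were filtered and ranked as the report states and thinned to 10000 UMIs without replacement (seed 11, numpy 2.4.6). UMIs were summed per group, and genes with at least 20 CPM in either group were compared by the ratio of sums, with intervals from scipy 1.17.1. A ratio of 1.5-fold was the limit for counting a gene. With 1 library per condition no test was run. The ratios, their intervals, the fold limit and the thinning were tested on simulated data, but the filters and the ranking were not.

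The cells and gene lists were chosen with earlier results of these data known. Genes named are the 6 ranking genes, the given markers, list genes whose role is described, and, among genes of at least 50 CPM, the 15 with the largest ratio each way. No doublet caller was run, and the 5% of cells with the most UMIs were left out as an alternative. Keratinocyte-like cells had more UMIs of Krt14, Krt5, Krt10 and Krt1 than of Dct, Tyrp1, Pmel and Mlana. The libraries shared 1 barcode, which was in 0 ranked cells. edgeR 4.0.16 gave TMM factors only. Some marker genes are not reported here and were left out of their list. Alternatives varied the share, limits, filters, depth, scaling and seed.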

Additional observations from a re-analysis of the deposited data

Results flagged for a closer look

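S100a6, a calcium-binding protein, was on opposite sides in the rankings of the 2 libraries, which was not tested. Its log2 ratio was 0.77 in the early-anagen ranking (154 and 90.3 CPM) and -4.37 in the bulb ranking. In the bulb library, 137 of 4327 barcodes had a S100a6 UMI, and 20 of them held 2441 of its 3970 UMIs. Keratinocyte markers were lower in the same bulb ranking, with a log2 ratio of -1.86 for their sum, and their part in the S100a6 value was not tested. Barcodes of 5000 to 10000 UMIs in the early-anagen library, which the comparisons did not use, also held UMIs of the 6 genes. At 5000 UMIs per barcode the 6 genes were at 961 CPM [922, 1002] in 462 such barcodes, against 692 CPM [674, 711] in all 1523 ranked cells, and 1424 CPM in Rnase1-high and 352 CPM in comparison cells, which were chosen on these genes. Rnase1 was at 143 CPM there and 45.6 CPM in all ranked cells, and Malat1 at 28545 and 15931 CPM, while keratinocyte markers were at 117 and 30.7 CPM; their part in the result was not tested.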

How the results depend on the processing

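Of 94 named genes at least 1.5-fold higher or lower, between 92 and 94 kept the sign of their ratio under 19 alternatives, but 26 stayed past 1.5-fold with Rnase1 alone as the share, 76 within 10000 to 20000 UMIs, 77 with separate parts of the UMIs, and 81 to 94 under the others. The counts of genes at least 1.5-fold higher and lower were 99 and 71 with Rnase1 alone as the share, 594 and 1169 with TMM scaling, 529 and 418 among genes of at least 50 CPM, and 210 and 196 at 2-fold. Against all other cells, 677 genes were higher. The log2 ratio of UMIs per cell was -0.44 when cells were ranked after thinning, -0.24 with Rnase1 alone, -0.32 above 15000 UMIs and -0.12 within 10000 to 20000 UMIs, where the range itself limits it. The ribosome biogenesis median was -0.37 with Rnase1 alone and -0.68 in cells low in S and G2/M genes. The pigmentation median was 0.14 within 10000 to 20000 UMIs and -0.56 in cells low in S and G2/M genes, and the cause was not tested. The ratio of Cxcl9 turned to 0.06 with the ranking on thinned cells, 2.20 with Rnase1 alone, 0.14 with the top 30%, 0.19 under 3% mitochondrial UMIs and 0.78 without the 14 cells rich in Krtdap and chemokines, a step chosen after seeing the data, where Cxcl10 was at 0.22. S100a6 was at -0.20 with Rnase1 alone and -0.04 within 10000 to 20000 UMIs.

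An alternative restricted to Xist-positive cells lacking Y-linked transcripts was not run, since 0 cells qualified. No paired analysis was possible because each condition has 1 library. At 20 CPM a gene had 61.0 UMIs in the Rnase1-high and 152 in the comparison group, which limits the precision of low genes.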

Other observations

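Lysosome, antigen presentation and interferon genes had median ratios above 0 in Rnase1-high over comparison cells, but the share of them past 1.5-fold was near the 17.4% of all genes that were higher. Of 19 lysosome and autophagy genes with at least 20 CPM, 18 had a log2 ratio above 0 and 4 were at least 1.5-fold higher, with a median of 0.34. Ctsl, a lysosomal protease, was at 1029.8 and 656 CPM, and Wipi1, a factor of autophagosome formation, at 107 and 64.7 CPM. Of 11 MHC class I genes, 2 were at least 1.5-fold higher, H2-T23 at 218 and 101 CPM (log2 1.12) and H2-Q4 at 80.7 and 44.2 CPM (log2 0.87), while B2m, the shared light chain, was at 2652 and 2056 CPM (log2 0.37). Of 8 interferon-stimulated genes, 2 were at least 1.5-fold higher, Rtp4 and Irf9, and Isg15 was at 75.7 and 89.9 CPM. Among genes of surface proteins used to tell McSC subsets apart, Erbb3, a neuregulin receptor, was at 110.5 and 61.0 CPM (log2 0.86) and Cd200 at 99.7 and 58.4 CPM (log2 0.77), while Cdh1, Cdh3, Itga6 and Kit had log2 ratios between 0.35 and 0.52, and Mc1r, the melanocortin receptor, was at 50.8 and 119.9 CPM (log2 -1.24).

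Of all genes 12.5% were at least 1.5-fold lower and 17.4% higher. Of 13 glycolysis genes, 5 were lower and 0 higher (median -0.34), with Ldha, lactate dehydrogenase A, at 362 and 648 CPM (log2 -0.84). Of 18 actin and tubulin cytoskeleton genes, 2 were at least 1.5-fold higher and 2 lower, 16 had a ratio below 0, and the median was -0.20. Tuba1b, an alpha tubulin, was at 86.2 and 202 CPM (log2 -1.23), and Myh9, a non-muscle myosin, at 173 and 105 CPM (log2 0.73). Of 18 translation factors, 5 were lower, among them Eif5a at 548 and 1261 CPM (log2 -1.20), while Eef1a1 was at 8888 and 7518 CPM (log2 0.24). Immediate early genes, which tissue dissociation can induce, had a median of 0.26, with Fosb (log2 0.78) and Jund (log2 0.61) at least 1.5-fold higher and Hsp90aa1 (log2 -0.59) lower. The 8 WNT target and feedback genes had a median of -0.10, with Tcf7l2 at 40.7 and 21.4 CPM (log2 0.93) and Ccnd1, cyclin D1, at 18.7 and 53.3 CPM (log2 -1.51), and Axin2 was at 47.9 and 47.4 CPM. At their weakest over the alternatives Tcf7l2 was at 0.42 and Ccnd1 at -0.04, both within 1.5-fold. The 9 ERK feedback genes had a median of 0.25, with Etv4 at 10.8 and 33.9 CPM (log2 -1.65), and 0 of 4 Notch genes passed 1.5-fold. With TMM scaling every ratio of the main comparison in these paragraphs is lower by 0.16, which turns the sign of positive ratios under that size.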
